A study of Mus musculus with 4 samples.

Results

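The granzymes are a family of serine proteases that cytotoxic lymphocytes store in secretory granules and release toward target cells. The family studied here was Gzma, Gzmb, Gzmc, Gzmd, Gzme, Gzmf, Gzmk and Gzmm, chosen by gene name and not by any measured value. Of these 8 genes, 6 had a value among the 16338 rows of the expression tables, and Gzmd and Gzme were not analysed here. All 6 passed a filter that asked for a mean of 1 normalized count or more, as did 16102 rows in all.

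RNA sequencing measured mouse T cells bearing either the TRP1high or the TRP1low T cell receptor (TCR), sorted after 48 h with B cells that had been loaded with peptide M9 or peptide K8. The antigen TRP1, or tyrosinase-related protein 1, belongs to pigment cells and melanomas, and the study concerns how CD8 T cells respond when tumor peptides bind differently to MHC class I. The 4 groups were TRP1high with M9, TRP1high with K8, TRP1low with M9 and TRP1low with K8, and each held 1 library. No difference could therefore be set against the spread between cultures. All groups shared the co-culture with B cells, the stimulation time and the sort, and the labels used here do not give the animals, the number of mice or the residue changes in the peptides.

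Granzymes enter target cells through pores made by perforin. Granzyme B cuts after aspartate, activates caspases and the death protein BID, and is the main killing protease of activated CD8 T cells. Granzyme A cuts after basic residues and acts on nuclear and mitochondrial proteins, and granzyme K has the same preference. In the mouse genome the Gzmb gene lies in a cluster with Gzmc, Gzmd, Gzme, Gzmf, Gzmg and Gzmn, which arose by duplication, while Gzma and Gzmk lie side by side on another chromosome.

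In the GRCm38 (mm10) annotation the cluster runs along 144.6 kb of chromosome 14, from 56117626 to 56262260, with 7 granzyme genes on the minus strand in the order Gzme, Gzmd, Gzmg, Gzmn, Gzmf, Gzmc and Gzmb. Gzmb (56258838 to 56262260), Gzmc (56231441 to 56234656) and Gzmf (56205263 to 56211417) are its members with a value. Gzma (113093825 to 113100981) and Gzmk (113171608 to 113225908) lie on the minus strand of chromosome 13, and Gzmm (79689020 to 79695261) lies on the plus strand of chromosome 10. All are annotated as protein coding. Gzmf overlaps the antisense gene Gm4022 and Gzmk overlaps Esm1 on the other strand. These are overlaps of whole gene spans, and overlap of exons was not examined. Whether the counting used strand is not given in the sources used here. Whether reads from the overlapping genes entered these values was not tested.

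The upstream sequences of the neighbours Gzmb, Gzmc and Gzmf and of Gzma are shown because the cluster neighbours differed in level and in direction between libraries, and Gzma had the widest range of the family. Each is the 250 bases before the RefSeq start (GRCm38.p6), read 5′ to 3′ on the gene's strand. Capitals mark matches, on either strand, to 6 short motifs: AP-1 (TGANTCA), CRE (TGACGTCA), RUNX (TGTGGT), T-box (TCACACC), STAT (TTCNNNGAA) and NFAT (GGAAAA). No motif overlapped another in the sequences shown.
Gzmb, chr14:56262335-56262584, minus strand: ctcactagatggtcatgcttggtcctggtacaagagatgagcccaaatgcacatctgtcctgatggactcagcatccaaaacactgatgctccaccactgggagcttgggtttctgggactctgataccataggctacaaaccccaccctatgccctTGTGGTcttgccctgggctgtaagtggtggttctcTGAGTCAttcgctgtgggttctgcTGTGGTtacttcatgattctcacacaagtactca
Gzmc, chr14:56234658-56234907, minus strand: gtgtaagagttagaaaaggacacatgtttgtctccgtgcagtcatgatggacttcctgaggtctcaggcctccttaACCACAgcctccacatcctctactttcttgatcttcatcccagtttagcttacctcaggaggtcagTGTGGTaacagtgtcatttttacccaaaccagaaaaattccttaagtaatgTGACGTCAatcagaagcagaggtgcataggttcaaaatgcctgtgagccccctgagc
Gzmf, chr14:56211408-56211657, minus strand: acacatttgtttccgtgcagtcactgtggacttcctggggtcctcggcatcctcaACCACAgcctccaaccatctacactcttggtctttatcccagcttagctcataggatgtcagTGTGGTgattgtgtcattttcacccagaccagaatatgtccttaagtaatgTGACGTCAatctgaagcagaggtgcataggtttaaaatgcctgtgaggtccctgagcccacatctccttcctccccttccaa
Gzma, chr13:113100982-113101231, minus strand: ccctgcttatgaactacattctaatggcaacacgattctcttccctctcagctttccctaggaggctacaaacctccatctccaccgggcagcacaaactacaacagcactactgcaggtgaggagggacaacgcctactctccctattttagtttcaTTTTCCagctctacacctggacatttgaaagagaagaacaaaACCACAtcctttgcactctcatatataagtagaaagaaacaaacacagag

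Counted from -1 at the last base before the start, Gzmb held an AP-1 match at -58 and RUNX matches at -93 and -34. Gzmc held a CRE match at -57 and RUNX matches at -174 and -108, and Gzmf held the same 3 matches in the same order, at -82, -195 and -133. Gzma held a RUNX match at -50 and an NFAT match at -92. Of 32841 windows of this length, 6.75% held an AP-1 match, 1.55% a CRE match, 14% a RUNX match and 20.4% an NFAT match. Gzmk held 1 T-box match, against 3.33% of windows, and Gzmm held RUNX, NFAT and STAT matches, the last against 7.02% of windows. The upstream sequences of Gzmc and Gzmf were 70.2% identical in a global alignment, against 47.8% for Gzmb and Gzmc and 45.5% for the neighbours Gzma and Gzmk. These matches describe letters, and binding was not measured.

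Likeness among the coding sequences bears on how far reads can be assigned. Gzmf was 87, 85 and 83% identical to Gzmg, Gzme and Gzmd in its coding sequence, and 22.8% of the 31-base words of its transcript also occurred in transcripts of other genes. Gzmc shared 14.8% of its words with the cluster and Gzmb 1.35%, all of these with Gzmc. Gzma, Gzmk and Gzmm shared 0 words with any other gene, with words compared in the transcript direction only. The values of Gzmf and Gzmc are thus uncertain to the extent that reads were split among copies. The coding sequence of Gzmb was 75.9% identical to that of Gzmc, its closest relative.

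**Figure D1:**
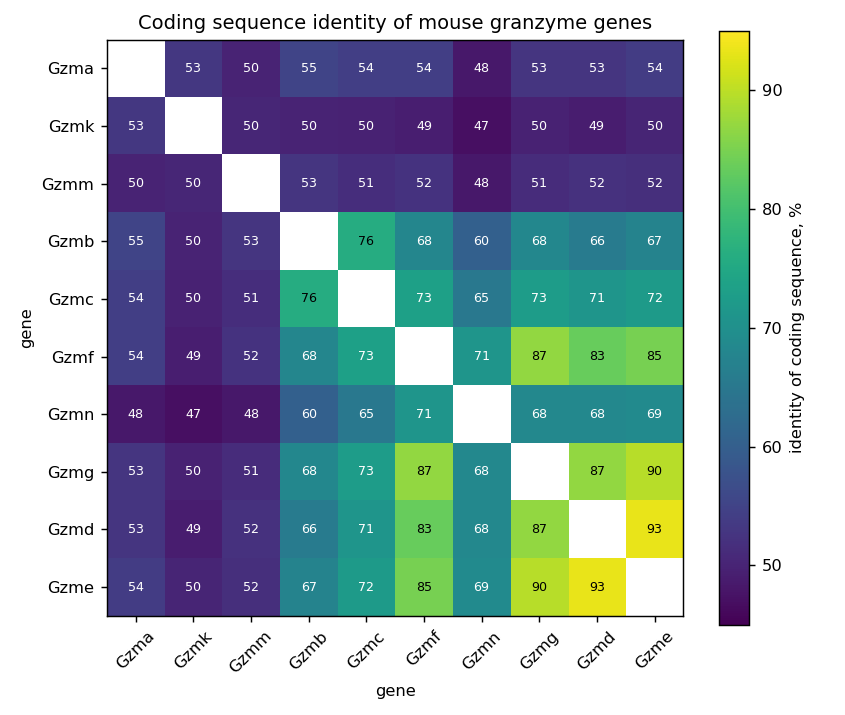
Identity of the coding sequences of 10 mouse granzyme genes, in percent of aligned columns, with genes on both axes. Gzmd and Gzme are the closest pair at 93%, Gzmb and Gzmc reach 76%, and Gzma, Gzmk and Gzmm stay at or below 55.3% with every gene shown.

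Gzmb carried nearly all granzyme transcript in every library. It had 149629 normalized counts in TRP1high with M9, 142017 in TRP1high with K8, 128160 in TRP1low with M9 and 30410 in TRP1low with K8. These are log2 levels of 17.19, 17.12, 16.97 and 14.89 on the deposited scale, which is the log2 of the normalized count plus 1. The TRP1low library with K8 was thus the 1 low library, and the other libraries lay within 0.22 of each other. Gzmb ranked 19, 20 and 27 among all rows by normalized count in those libraries and 175 in TRP1low with K8, a rank that does not allow for transcript length.

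**Figure D2:**
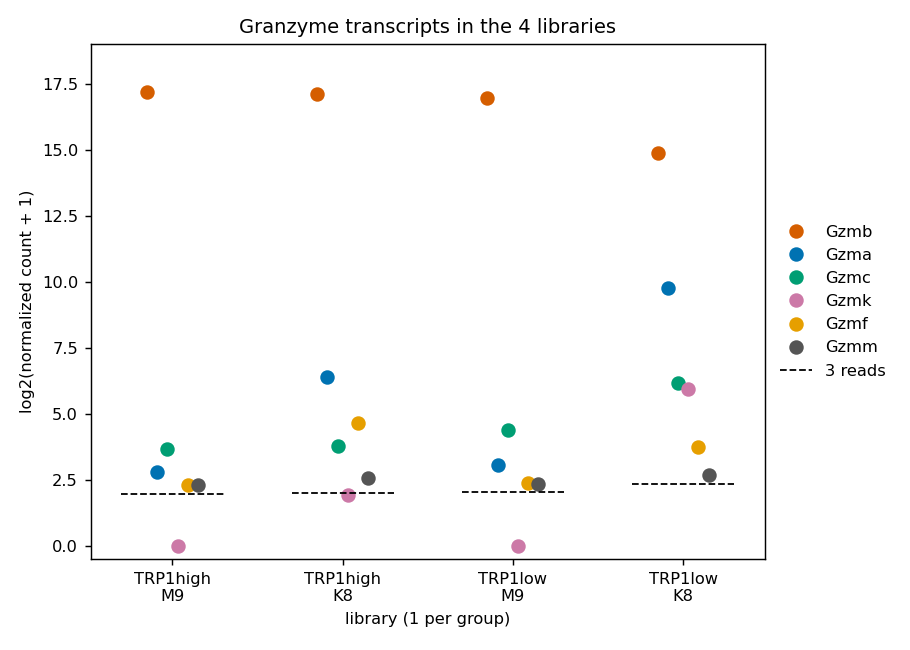
Log2(normalized count + 1) of the 6 granzyme genes in the 4 libraries, 1 point per gene and library, with dashed lines at the level of 3 reads. Gzmb stands between 14.89 and 17.19 in all libraries, and Gzma, Gzmc and Gzmk are highest in TRP1low with K8.

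As a share of estimated reads, the 6 granzymes together made up 0.364% of TRP1high with M9 (95% Wilson interval 0.362 to 0.366), 0.352% of TRP1high with K8 (0.350 to 0.353), 0.303% of TRP1low with M9 (0.301 to 0.305) and 0.0776% of TRP1low with K8 (0.0766 to 0.0786). Gzmb held 99.98, 99.91, 99.97 and 96.7% of those granzyme reads in the same order. Gzma held 0.0582% (0.0470 to 0.0722) of granzyme reads in TRP1high with K8, against 2.79% (2.58 to 3.01) in TRP1low with K8. These intervals cover counting error only.

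The other 5 granzymes were far less abundant, and their sum went the other way. Their summed level was 25.7 normalized counts in TRP1high with M9, 127.5 in TRP1high with K8, 35.7 in TRP1low with M9 and 1026 in TRP1low with K8. The library that was lowest in Gzmb was thus the highest in this sum, and both M9 libraries were below both K8 libraries. Gzma made up most of the sum with K8, at 82.8 normalized counts in TRP1high and 876 in TRP1low. The sum therefore does not stand for each gene, and Gzmf was highest in TRP1high with K8, at 24.0. In a bulk sample, fewer cells with a transcript and less transcript per cell cannot be told apart.

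Gzma, the tryptase granzyme, had 5.97 normalized counts in TRP1high with M9, 82.8 in TRP1high with K8, 7.38 in TRP1low with M9 and 876 in TRP1low with K8, which are 6, 83, 7 and 641 estimated reads. Both M9 libraries were low and close to each other, and the K8 libraries were higher by different amounts. Gzma spanned 6.98 on the log2 scale over the 4 libraries, a wider range than 99.5% of the 16102 genes tested, whose median range was 0.93. Its level was thus among the most variable of all genes, while the range of Gzmb, 2.30, was wider than that of 81.1% of genes.

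Gzmk, the neighbour of Gzma and likewise a tryptase, had 0, 2.85, 0 and 61.2 normalized counts in TRP1high with M9, TRP1high with K8, TRP1low with M9 and TRP1low with K8. Only TRP1low with K8, at 45 reads, was above the floor of 3 reads that a count of 0 allows. That floor stands at 2.97 and 3.15 normalized counts in the M9 libraries of TRP1high and TRP1low. After each gene was centred on its own mean, the profiles of Gzma and Gzmk over the 4 libraries lay 1.29 log2 units apart (Euclidean distance), the closest of the 15 pairs of granzymes, against 7.39 for Gzma and Gzmb, the farthest. With 4 libraries and 2 of the Gzmk values at 0, this is a description of these libraries.

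Among the copies in the Gzmb cluster, Gzmc, a granzyme of activated mouse lymphocytes, had 11.9 normalized counts in TRP1high with M9, 13.0 in TRP1high with K8, 19.9 in TRP1low with M9 and 71.1 in TRP1low with K8. Gzmf, another rodent granzyme of the cluster, had 3.96, 24.0, 4.20 and 12.3 in the same order. Gzmc was thus level with both peptides in TRP1high and high only in TRP1low with K8, whereas Gzmf had 4 reads in each M9 library, against 24 (TRP1high) and 9 (TRP1low) in the K8 libraries. Gzmm, a granzyme known mainly from natural killer (NK) cells and innate-like T cells, stayed at 4 or 5 reads in every library, from 3.92 to 5.42 normalized counts, and no difference was detectable at this depth.

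Set on a scale of normalized counts per kb of transcript, Gzmb led in all libraries, and the second place differed. With M9, Gzmc followed Gzmb in both receptors, at 13.3 per kb in TRP1high, where Gzma reached 5.99, and at 22.3 per kb in TRP1low, where Gzma reached 7.41. The counting interval of the ratio of Gzmc to Gzma was 0.774 to 7.24 in TRP1high and 1.22 to 8.51 in TRP1low, so that the order was beyond counting error in TRP1low alone. With K8, Gzma was second in both, at 83.1 per kb in TRP1high and 879 per kb in TRP1low. In TRP1low with K8, Gzmc (79.6 per kb), Gzmk (46.9), Gzmf (13.4) and Gzmm (4.21) followed, and of these the step from Gzmf to Gzmm was within counting error.

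The first comparison asks how the family differed between M9 and K8 within each receptor. In TRP1high, Gzma and Gzmf were lower with M9, and Gzmb and Gzmc were near level. In TRP1low, Gzmb was 4.21-fold higher with M9, and Gzma, Gzmk, Gzmc and Gzmf were lower. A gene was counted as different at 2-fold or more on the deposited scale, with at least 10 normalized counts in either library. By that rule 2 of 6 granzymes differed in TRP1high, where 9.87% of all genes did, and 5 of 6 in TRP1low, where 15.1% did. Higher with M9 were 0 granzymes in TRP1high (5.14% of all genes) and 1 in TRP1low (7.67%), and 2 (4.73%) and 4 (7.43%) were lower. The members' median log2 difference was -1.11 in TRP1high and -1.57 in TRP1low, beside -0.02 and 0.02 over all genes tested. With values under the floor of 3 reads raised to it, the members' median was -0.20 in TRP1high, where both Gzmk libraries lie within the floor, and again -1.57 in TRP1low.

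Gzma was 13.9-fold lower with M9 in TRP1high (95% exact counting interval 6.15 to 39.1) and 118.7-fold lower in TRP1low (57.6 to 298). Gzmb was 1.05-fold higher with M9 in TRP1high (1.046 to 1.061) and 4.21-fold higher in TRP1low (4.15 to 4.28). These intervals reflect read numbers alone, and for Gzmb they are narrow because of its depth, not because cultures were compared. In TRP1low, Gzmk with M9 was lower by at least 19.4-fold, taken against the floor of 3 reads in that library. That bound takes the 45 reads with K8 as exact and is not a 95% interval. In TRP1high both Gzmk libraries were within the floor.

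Gzmf was 6.05-fold lower with M9 in TRP1high (2.08 to 24.0) and 2.93-fold lower in TRP1low, where 4 and 9 reads gave an interval of 0.819 to 13.0 that includes no difference. With a pseudocount of 5 in place of 1 its log2 difference in TRP1low was -0.91, below 2-fold. Gzmc was 3.57-fold lower with M9 in TRP1low (2.07 to 6.39) and 1.09-fold lower in TRP1high (0.460 to 2.62). With a minimum of 100 normalized counts in place of 10, 0 granzymes in TRP1high and 2 in TRP1low (Gzma and Gzmb) were counted. Of all 16102 genes, 573 in TRP1high and 1036 in TRP1low were counted at that minimum.

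**Figure D3:**
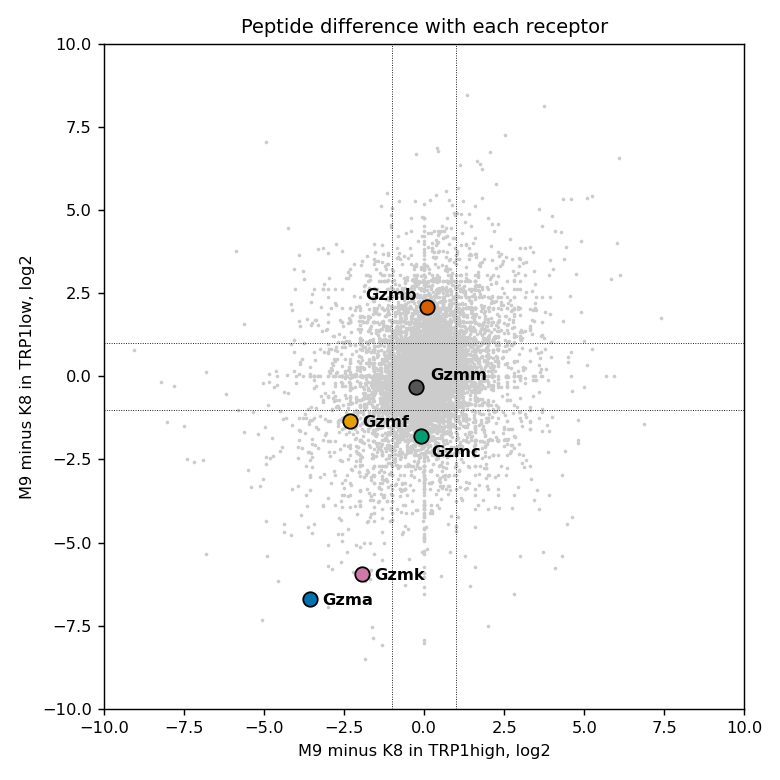
Log2 difference of M9 minus K8 in TRP1high (x axis) and in TRP1low (y axis) for the 16102 genes tested (grey) and the 6 granzymes (coloured), with dotted lines at 2-fold. Gzma lies at -3.59 and -6.71 and Gzmk at -1.95 (within the floor of 3 reads in both TRP1high libraries) and -5.96, toward the lower left, and Gzmb lies at 0.08 and 2.08.

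The peptide differences of the 2 receptors were also set against each other, as the difference in TRP1high minus the difference in TRP1low. This value was -2.0 for Gzmb (0.08 in TRP1high and 2.08 in TRP1low), 3.12 for Gzma, 4.01 for Gzmk and 1.67 for Gzmc. It was -0.97 for Gzmf and 0.04 for Gzmm. It reached at least 1 in size, with at least 10 normalized counts in some library, for 4 of 6 granzymes and for 18.7% of all genes. The 4 libraries leave no degree of freedom for a test of this difference.

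The second comparison sets TRP1high against TRP1low with each peptide. With M9 0 of 6 granzymes were 2-fold apart, where 12.9% of all genes were (7.37% higher and 5.58% lower in TRP1high). The log2 differences ran from -0.70 (Gzmc) to 0.22 (Gzmb). With K8, 4 of 6 were 2-fold apart, where 18.9% of all genes were. Of these, 1 was higher in TRP1high (10.6% of all genes) and 3 were lower (8.35%). Gzmb was 4.67-fold higher in TRP1high (4.60 to 4.74). Gzma was 10.6-fold lower in TRP1high (8.41 to 13.5), Gzmc 5.48-fold lower (2.94 to 11.0) and Gzmk 21.5-fold lower (6.60 to 103.4, from 3 and 45 reads). The members' median log2 difference was -0.07 with M9 and -1.24 with K8, beside -0.03 and 0.00 over all genes. The comparison with K8 and the peptide comparison in TRP1low share the library of TRP1low with K8, so their values are not independent of each other.

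For the peptide over both receptors, limma fitted an additive model of receptor and peptide to all genes with 1 residual degree of freedom, so that its error measures how far the receptors disagree and not the spread between cultures. Averaged over receptors, the log2 difference of M9 minus K8 was -5.15 for Gzma (SE 1.02), -3.95 for Gzmk (SE 1.31), -1.84 for Gzmf (SE 0.37), -0.95 for Gzmc (SE 0.57), -0.29 for Gzmm (SE 0.19) and 1.08 for Gzmb (SE 0.67). With a pseudocount of 5 in place of 1 the value for Gzmk was -2.19. Gzmk was at 0 in both M9 libraries, and within the floor of 3 reads in both TRP1high libraries. Gzma was lower with M9 in both receptors beyond counting error. Gzmb was near level in TRP1high (1.05-fold higher with M9) and 4.21-fold higher with M9 in TRP1low. In limma with Benjamini-Hochberg adjustment over all genes, 0 of 16102 genes (0%) passed an adjusted p of 0.05, and 1342 had an unadjusted p below 0.05, among them Gzma and Gzmf (limma unadjusted p of 0.025 each, adjusted p = 0.58). Over the other settings tried, the limma adjusted p ran from 0.15 to 0.83 for Gzma and from 0.44 to 0.83 for Gzmf.

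For the receptor over both peptides, the same limma fit called 0 of 16102 genes (0%), with 2044 at an unadjusted p below 0.05, none of them a granzyme. The log2 difference of TRP1high minus TRP1low was 1.22 for Gzmb (SE 0.67), -1.83 for Gzma (SE 1.02), -2.01 for Gzmk (SE 1.31), -1.53 for Gzmc (SE 0.57), 0.42 for Gzmf (SE 0.37) and -0.09 for Gzmm (SE 0.19). The limma adjusted p ran from 0.42 for Gzmc to 0.82 for Gzmm.

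The gene of perforin, which delivers granzymes, followed another pattern than Gzmb. Prf1, which encodes perforin, had log2 levels of 12.31 in TRP1high with M9, 8.85 in TRP1high with K8, 11.55 in TRP1low with M9 and 8.77 in TRP1low with K8. Both M9 libraries were thus high and both K8 libraries low, while Gzmb was low in 1 K8 library only. Per kb of transcript, Gzmb exceeded Prf1 by 50.9-fold in TRP1high with M9, 530-fold in TRP1high with K8, 73.4-fold in TRP1low with M9 and 120.2-fold in TRP1low with K8. Averaged over receptors, the log2 difference of Prf1 was 3.12 (SE 0.29, limma adjusted p = 0.58), and over the other settings tried the limma adjusted p ran from 0.041, with eBayes trend, to 0.60.

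Of 15 genes of granule delivery and pro-granzyme processing, M9 cells of TRP1high had 4 at 2-fold higher (5.14% of all genes) and 1 at 2-fold lower levels (4.73%), and M9 cells of TRP1low had 2 (7.67%) and 1 (7.43%). Higher in both were Prf1 and Srgn, the proteoglycan that holds granzymes in the granule, at log2 differences of 1.52 and 1.09. Lower in both was Ctsh, cathepsin H, a protease reported in mice to process pro-granzyme B, at -4.42 and -1.28 from 1, 32, 10 and 20 reads in TRP1high with M9, TRP1high with K8, TRP1low with M9 and TRP1low with K8. Ctsh is also expressed in B cells and myeloid cells, and its level followed the B cell markers described below in being lower with M9. Ctsc, cathepsin C, the main activator of pro-granzymes, was near level at 0.17 and 0.26. The median of these 15 differences was 0.20 (TRP1high) and 0.09 (TRP1low), beside -0.02 and 0.02 over all genes.

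Among 6 genes of serpin inhibitors, M9 gave 1 higher and 1 lower gene in TRP1high, where 9.87% of all genes differed in either direction, and 1 lower gene in TRP1low, where 15.1% did. Serpinb1a, a serpin that inhibits neutrophil-type proteases, was lower in both (-3.72 and -1.70, from 5, 73, 7 and 20 reads). Serpinb9, the inhibitor of granzyme B that protects the killer cell itself, had log2 levels of 13.41 in TRP1high with M9, 12.66 in TRP1high with K8, 13.29 in TRP1low with M9 and 12.87 in TRP1low with K8, and its differences of 0.75 and 0.42 stayed below 2-fold. Of 14 measured substrates of granzymes, 0 were 2-fold apart in TRP1high and 1, the gasdermin Gsdme (1.28), was higher with M9 in TRP1low, both below the same shares of all genes. The medians were 0.59 and 0.26 for the inhibitors and -0.12 and 0.02 for the substrates in TRP1high and TRP1low.

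Of 16 transcription factors linked to granzyme expression, M9 gave 2 higher (5.14% of all genes) and 4 lower genes (4.73%) in TRP1high, and 2 higher (7.67%) and 3 lower genes (7.43%) in TRP1low. Klf2, a factor of quiescent T cells (-1.22 and -2.14), and Id2, an inhibitor of E proteins that effector T cells need (-1.66 and -1.41), were lower in both. Tbx21, which encodes T-bet, was near level at 0.27 and 0.28. Irf4, a factor that scales with TCR signal strength, stood at log2 14.57, 14.10, 14.65 and 12.91 and Nfil3 at 10.08, 9.90, 9.02 and 7.23 in TRP1high with M9, TRP1high with K8, TRP1low with M9 and TRP1low with K8. Both were lowest in TRP1low with K8, as Gzmb was, and so were 5 of the 16 factors in all, while 5 others were lowest in TRP1high with M9. Prdm1, which encodes the effector factor Blimp-1 (-2.34 and -0.18), and Eomes, a T-box factor related to T-bet (-1.44 and -0.21), were among those lowest in TRP1high with M9. Zeb2, a factor of terminal effector T cells, differed by 2.74 in TRP1high and 0.96 in TRP1low. The median of these 16 differences was -0.15 (TRP1high) and -0.20 (TRP1low).

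**Figure D4:**
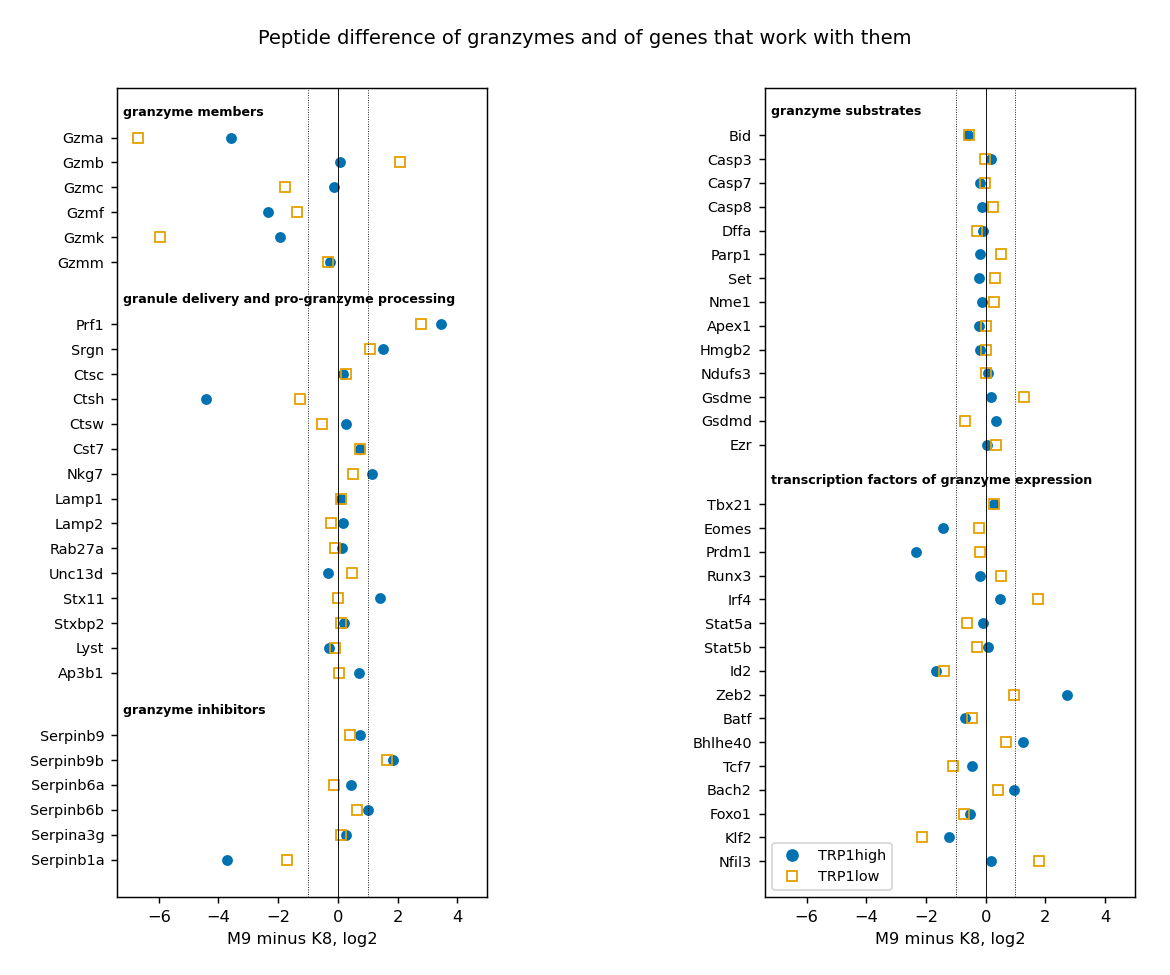
Log2 difference of M9 minus K8 in TRP1high (filled circles) and TRP1low (open squares) for the granzymes and 4 lists of genes that act with them, with dotted lines at 2-fold. Prf1 is higher with M9 in both receptors at 3.45 and 2.78, while most substrates lie within 2-fold of level.

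By the likeness of profiles among 10047 genes that averaged 100 normalized counts or more, the nearest to Gzmb over the 4 libraries were Izumo1r, which encodes folate receptor 4, Fads2, a fatty acid desaturase, and Slc4a8, a bicarbonate transporter. Their distances were 0.16, 0.16 and 0.22 log2 units, and each was lowest in TRP1low with K8. Nearest to Gzma were Ifit1bl1, a gene of the interferon-induced IFIT family, Ccr9, a gut-homing chemokine receptor, and Capn3, a calpain protease, at 1.54, 2.05 and 2.10. These distances rest on 4 libraries and are a description.

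The 8 CD8 T cell markers, among them Cd8a and Cd3e, were present in every library, with summed log2 levels of 17.01, 16.66, 16.80 and 16.81 in TRP1high with M9, TRP1high with K8, TRP1low with M9 and TRP1low with K8. Markers of other cells also differed between libraries, some in the direction of the minor granzymes and some not. The 12 B cell markers summed to 7.33, 10.96, 8.58 and 10.38 on the log2 scale in that order, with Pax5 and Cr2 among those at 0 in TRP1high with M9 and Cr2 at 0 in TRP1low with M9. Like Gzma, they were lower in both M9 libraries, but unlike Gzma they were highest in TRP1high with K8.

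The 9 measured markers of myeloid or dendritic cells, of 10 listed, summed to 184.5, 101.5, 124.9 and 376 normalized counts, highest in TRP1low with K8 as Gzma and Gzmk were. Siglech, a marker of plasmacytoid dendritic cells, was at 0 in both M9 libraries, and Csf1r was at 0 in TRP1high with K8. The 7 measured NK cell markers, of 10 listed, summed to 184.2, 38.7, 32.4 and 111.0 normalized counts, highest in TRP1high with M9. In that library the sum was mostly Klri2 (134 reads) and Klre1 (44 reads), which with Fcer1g were highest there. Tyrobp, Klra4 and Klra7 were instead highest in TRP1low with K8, and Klrb1c in TRP1high with K8. Klrb1c, Klra4 and Klra7 were at 0 in TRP1high with M9, and Klra7 and Fcer1g were at 0 in TRP1low with M9. The 5 gamma delta T cell markers summed to 9.78, 11.80, 9.70 and 10.28 on the log2 scale, lower in both M9 libraries. The sums of the 5 measured plasma cell markers, of 6 listed, and of the 4 CD4 T cell markers were lowest in TRP1low with K8. Those log2 sums were 13.33 and 5.54, against 14.98 and 7.11 in TRP1low with M9. The plasma cell sum was mostly Irf4 and Xbp1, which with Sdc1 were lowest in TRP1low with K8. Jchain (log2 2.61, 4.99, 1.06 and 5.64 in the library order above) and Mzb1 (0.99, 5.90, 1.03 and 6.45) were highest there. Of the CD4 T cell markers, Zbtb7b and Foxp3 were lowest there, Cd4 (0, 1.64, 4.27 and 4.73) was highest there and Cd40lg was neither. These sums therefore do not stand for each marker. The part of such cells in the levels of Gzma, Gzmk, Gzmc and Gzmf was not tested.

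**Figure D5:**
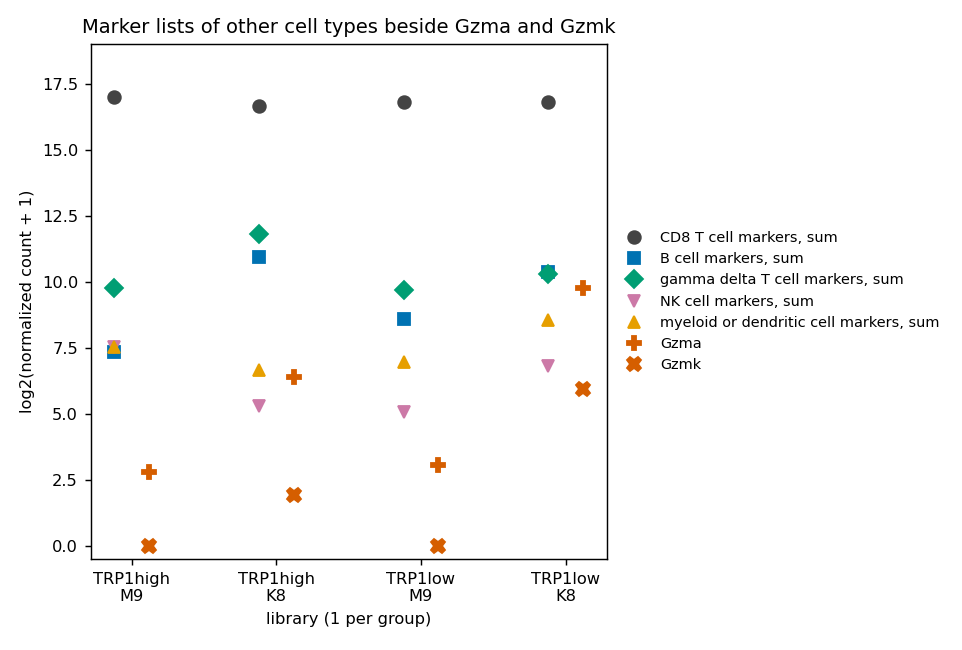
Log2(normalized count + 1) of the summed markers of 5 cell types, and of Gzma and Gzmk, in the 4 libraries. CD8 T cell markers stay between 16.66 and 17.01, B cell markers are highest in TRP1high with K8, and Gzma, Gzmk and the myeloid markers are highest in TRP1low with K8.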

How the data were processed

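The authors deposited log2 normalized counts per gene symbol, 1 value per library, per the file headers. The smallest value was 0, and low values, once converted back from log2 and lowered by 1, lay at multiples of 1 step per library (0.9895 to 1.3675 normalized counts), read as the worth of 1 read. The submitters' processing notes name Salmon 0.8.2, DESeq2 1.20.0 and mm10, with no settings and no annotation. Dividing by the step gave 29.6 M to 41.5 M estimated reads per library. Between 56.2% and 56.4% of values below 50 lay within 0.01 of a whole read, so whole reads were not recovered and no count model was run.

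Folds of single genes are ratios of normalized counts. Their 95% exact (Clopper-Pearson) intervals use estimated reads rounded to whole numbers, with a floor of 3 reads per library. limma 3.58.1 in R 4.3.3 (eBayes without trend) was tested on simulated data. Gene positions and transcript lengths (longest protein-coding transcript) come from GENCODE M21, and upstream sequences from RefSeq (GRCm38.p6), where all 6 measured genes matched. Identity was computed on coding sequence, since no protein sequences were used here, with Biopython 1.88. The longest transcript of Gzmk starts far upstream of the RefSeq start.

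The members were set by gene name and not by a measured value. Earlier results of these data were known when the members, lists and motifs were chosen. A TATA-box motif and an interferon-response motif were also searched, and were left out after their matches had been seen. Named were all members, up to 4 genes per list past 2-fold with the same sign in both receptors (largest mean difference), Prf1, and the 3 genes nearest in profile to each member with a mean of at least 100. Ctsc, Serpinb9, Gsdme, Tbx21, Irf4, Nfil3, Prdm1, Eomes and Zeb2, and single markers of cell types, were named after their values were seen.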

Additional observations from a re-analysis of the deposited data

Results flagged for a closer look

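Gzmf had receptor differences of opposite sign with the 2 peptides, neither of them beyond counting error. The log2 difference of TRP1high minus TRP1low was -0.067 with M9, from 4 reads in each library, and 0.91 with K8, from 24 and 9 reads. The ratio of normalized counts was 0.943 with M9 (95% exact counting interval 0.176 to 5.06) and 1.95 with K8 (0.873 to 4.76), and both intervals include no difference. The difference between these values was not tested, and each rests on 1 library per group.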

How the results depend on the processing

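Differences of granzymes other than 0 kept their direction under another pseudocount, scaling or floor. Gzmk with M9, at 0 in both receptors, differed between them by 0.03 when centred on the median ratio and by -0.06 with values raised to the floor. Of 262 values of single granzymes under these settings and other thresholds, filters and limma options, 251 stayed on the same side of the threshold, 10 fell short of it and 1 newly passed it. Part of the 251 could not have changed, since a stricter threshold cannot add a call and a looser one cannot remove it. With a threshold of 4-fold, 559 genes with 2 granzymes differed between peptides in TRP1high, and 945 genes with 3 granzymes in TRP1low. Between receptors, 678 genes with 0 granzymes differed with M9, and 1198 genes with 4 granzymes with K8. With no count minimum, 2762 and 3930 genes differed between peptides and 3238 between receptors with M9. With a minimum of 100, 573 genes and 0 granzymes differed between peptides in TRP1high, 1036 genes and 2 granzymes in TRP1low, and 901 genes (M9) and 1561 genes with 2 granzymes (K8) differed between receptors. Per transcript length, for the rows with a length (83.8%), the granzyme share was 0.493% in TRP1high with M9, 0.486% in TRP1high with K8, 0.402% in TRP1low with M9 and 0.107% in TRP1low with K8. With eBayes trend, limma called 5 genes for the peptide and 260 for the receptor, and with no covariate 44 for the receptor, 0 of them granzymes. The causes of these shifts in limma were not tested.

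No paired analysis was possible because each group held 1 library, and leaving out a library left no value or no residual degree of freedom. A sum of Gzmd, Gzme, Gzmf and Gzmg was not run, since only Gzmf of these was analysed here. Depth limits Gzmf, Gzmk and Gzmm, which had under 10 reads in most libraries.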
